A study of Arabidopsis thaliana with 6 samples.

Results

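The 10 genes of iron uptake, chelation, reduction and storage described here were measured in whole Arabidopsis thaliana seedlings of an sqtl1 RNA interference (RNAi) line and of the wild type, Col-0. They were chosen by identifier and are FIT, IRT1, FRO2, FRO3, FRO6, FRO7, NAS1, NAS4, OPT3 and FER1, which make 10 of the 38194 genes measured. The groups were 3 biological replicates of the sqtl1 RNAi line, whose sample names carry the mark sh1, and 3 of Col-0 with no transgene named. Both were listed as Col-0 background, grew in long days on MS medium with sucrose and agar, and were collected 7 days after stratification. The sources used here name neither the promoter of the RNAi construct nor the number of lines, and the identifier of the RNAi target was not used here. Values are RPKM, reads per kilobase of gene scaled to a size of each library set by the authors. RPKM times gene length summed to 926820 to 979309 in RNAi libraries and to 1051600 to 1071469 in Col-0 libraries. The deposited values were thus not scaled to equal sums. Gene coordinates are those of RefSeq's TAIR10.1.

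Plants other than grasses take up iron by reduction. Root cells acidify the soil, reduce ferric iron at the surface with the reductase FRO2 and import ferrous iron through the transporter IRT1, and the basic helix-loop-helix (bHLH) factor FIT is needed to switch both genes on under iron deficiency. Inside the plant, iron travels bound to citrate or to nicotianamine, which the NAS enzymes make, OPT3 loads it into the phloem, further ferric reductases (FRO) act in shoots and organelles, and ferritins such as FER1 store it in plastids. Chloroplasts hold most of the iron of a leaf.

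RNAi libraries held an estimated 43.7 to 47 M reads each and Col-0 libraries 37.9 to 49.9 M. Of 19458 genes tested, 52.6% passed limma's test at an adjusted p under 0.05, 25.2% higher and 27.5% lower in the RNAi line. Scaling libraries to equal sums put the median log2 fold change of all genes at 0.14 in place of -0.01, and the calls at 7738 higher and 3503 lower in place of 4894 and 5346. The 6 calls among the 10 genes held under it. RNAi libraries 1 to 3 scored 49.8, 42.6 and 21.7 on the first principal component, against -38.8, -36.9 and -38.4 for Col-0, so RNAi replicate 3 lay nearest to Col-0. Marker genes of leaf mesophyll, root epidermis, root endodermis and phloem were all detected in every library, the lowest at 1.08 RPKM.

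Of the 10 genes, 3 rose, 3 fell and 4 did not pass the test, where 52.6% of all genes passed. FRO3, OPT3 and NAS4 rose, and FIT, FRO6 and FRO7 fell. These 6 were also the genes whose 3 values in each group did not overlap, as was the case for 64.1% of all genes tested, 31.1% higher and 33% lower. The share of the 10 that passed, 60%, was thus near that of all genes. Without RNAi replicate 1, 5 of the 10 were lower, NAS1 and FER1 being added, where 5450 of all genes were lower. In size, FRO6 ranked 81 and NAS4 ranked 348 among 19458 genes by absolute log2 fold change, and FIT and FRO7 ranked 923 and 813. FER1 was the most abundant of the 10 in both groups, with a mean of 97.7 RPKM in the RNAi line and 108 RPKM in Col-0. In the RNAi line FRO3, NAS1 and OPT3 followed at 28.1, 27.2 and 23.4 RPKM, with overlapping values between neighbours in this order. NAS4 followed at 12.7 RPKM, and FIT, IRT1, FRO6, FRO2 and FRO7 lay between 3.91 and 1.2 RPKM, each overlapping the next. In Col-0 the order was NAS1 at 31.8, FRO3 at 21.6, OPT3 at 15.5 and FRO6 at 15.3 RPKM, of which only OPT3 and FRO6 overlapped. FIT at 9.82 and IRT1 at 7.77 RPKM overlapped as well, and FRO7, NAS4 and FRO2 were lowest at 4.11, 3.31 and 1.82 RPKM without overlap.

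**Figure D1:**
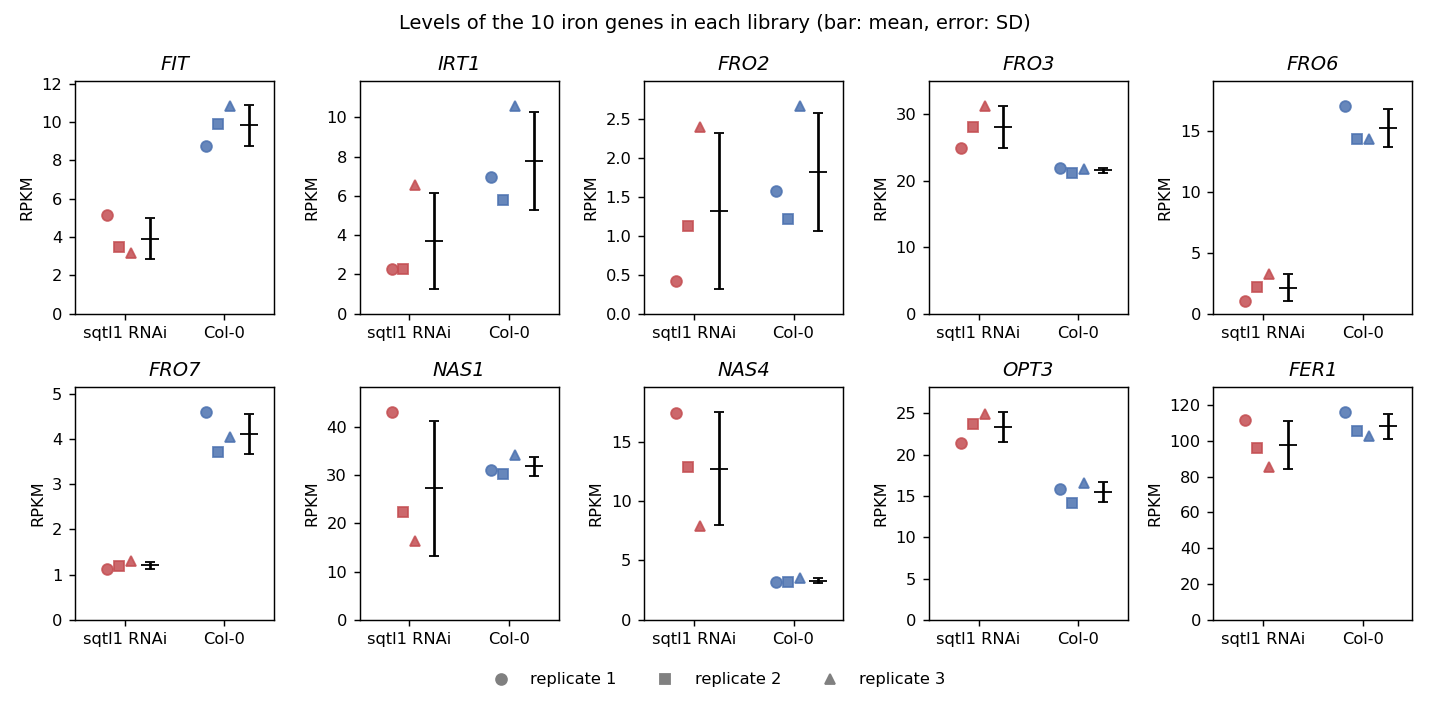
RPKM (vertical axes, from 0) of each of the 10 genes in the 3 sqtl1 RNAi libraries (red) and the 3 Col-0 libraries (blue), with marker shapes for replicates and black bars for mean and SD. FRO6, FRO7 and FIT lay lower and NAS4, OPT3 and FRO3 higher in all 3 RNAi libraries, and IRT1, FRO2, NAS1 and FER1 overlapped between groups.

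**Figure D2:**
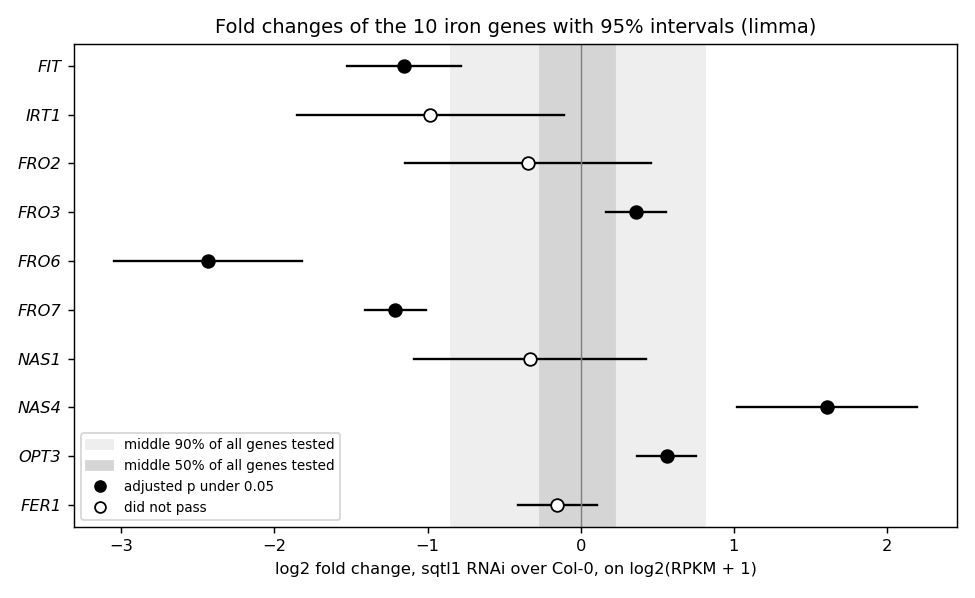
Log2 fold change of the 10 genes, sqtl1 RNAi over Col-0, on the log2(RPKM + 1) scale (horizontal axis) with 95% intervals from limma, over grey bands for the middle of all 19458 genes tested. FRO6 at -2.43 and NAS4 at 1.61 lay farthest from 0.

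The regulator FIT was lower in every RNAi library. Its target genes IRT1 and FRO2 were not called, and no difference between them and FIT was tested. FIT (AT2G28160, chromosome 2, 12004658 to 12006276, plus strand, 4 exons) had 5.12, 3.45 and 3.17 RPKM in RNAi replicates 1 to 3, against 8.72, 9.9 and 10.83 RPKM in Col-0 replicates 1 to 3. The highest RNAi value lay well under the lowest Col-0 value. FIT fell 2.51-fold, with a log2 fold change of -1.16 on the log2(RPKM + 1) scale (SE 0.15, limma adjusted p = 0.00154). That scale holds for all log2 fold changes here and understates changes of low genes, while fold values are ratios of mean RPKM. In whole seedlings, fewer cells of a type and less RNA per cell cannot be told apart.

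IRT1 (AT4G19690, chromosome 4, 10707344 to 10709015, plus strand, 3 exons), the main ferrous iron importer of the root surface, had 2.25, 2.3 and 6.55 RPKM in RNAi replicates 1 to 3, against 6.94, 5.79 and 10.58 RPKM in Col-0. RNAi replicates 1 and 2 lay below all Col-0 libraries and replicate 3 lay among them. Its log2 fold change was -0.98 with a 95% interval from -1.85 to -0.11, and it did not pass the test (limma adjusted p = 0.0594). Without RNAi replicate 3 it passed, at a log2 fold change of -1.38 (limma adjusted p = 0.00212). FRO2 (AT1G01580, chromosome 1, 208995 to 213082, plus strand, 8 exons), the root surface ferric reductase, had 0.42, 1.13 and 2.4 RPKM in the RNAi libraries, against 1.58, 1.22 and 2.67 RPKM in Col-0. RNAi replicate 3 was again the highest of its group, and the groups overlapped. The log2 fold change of FRO2 was -0.34 with a 95% interval from -1.15 to 0.46 (limma adjusted p = 0.421), on as few as 56 estimated reads in a library.

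RNAi replicate 3 stood apart in the same way for the subgroup Ib bHLH genes, which encode the partners of FIT and are themselves induced by iron deficiency. BHLH38 had 0.59, 0.83 and 2.59 RPKM in RNAi replicates 1 to 3, against 1.59, 2.11 and 1.99 RPKM in Col-0. BHLH39 had 1.59, 1.6 and 4.77 RPKM in the RNAi libraries, against 3.05, 3.03 and 2.79 RPKM in Col-0. BHLH101 had 0.25, 0.6 and 2.5 RPKM in the RNAi libraries, against 1.64, 1.32 and 1.75 RPKM in Col-0. For these 3 genes, RNAi replicates 1 and 2 lay below every Col-0 library and RNAi replicate 3 above every one. None of them passed with all libraries (limma adjusted p = 0.292, 0.565 and 0.359), and each was lower without RNAi replicate 3 (limma adjusted p = 0.00207, 0.000691 and 0.00258). The genes and that library were picked after their values were seen, so the latter p-values are no test of a difference. More of all genes passed without that library, 5515 higher and 6061 lower in place of 4894 and 5346. BHLH100 reached 3.05 RPKM in RNAi replicate 3, against 0.23 and 0.47 RPKM in RNAi replicates 1 and 2 and 0.26 to 1.03 RPKM in Col-0, and its mean was too low to be tested. CYP82C4, an enzyme gene of the secreted coumarins that mobilise iron, had 0.06, 0.11 and 0.99 RPKM in the RNAi libraries, against 0.59, 0.5 and 0.83 RPKM in Col-0. These 5 genes were singled out after their values were seen. FIT did not follow this pattern: its RNAi replicate 3 value was the lowest of the 6 libraries.

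**Figure D3:**
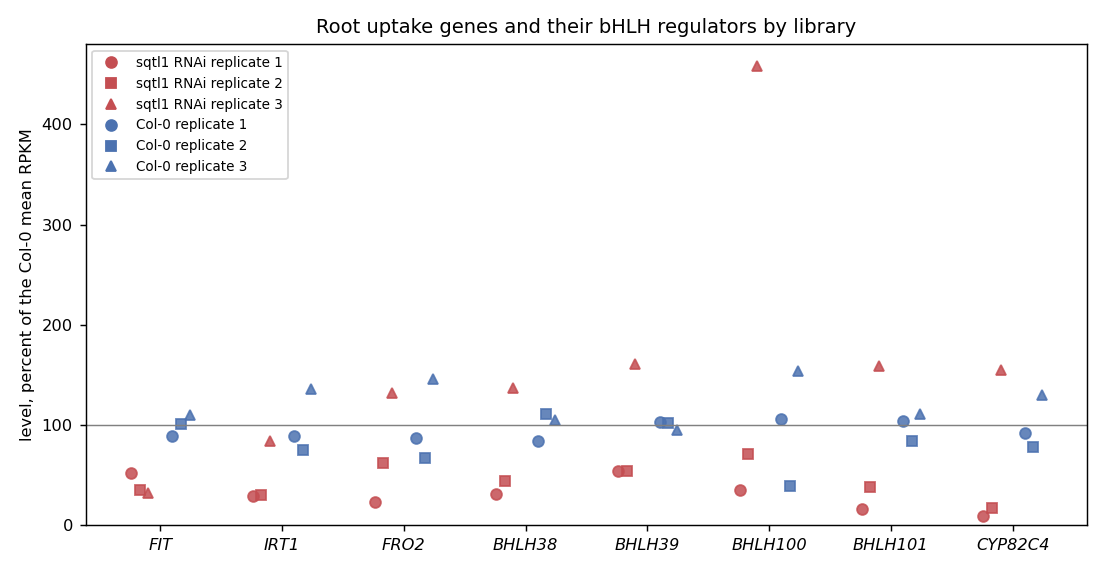
Levels of FIT, IRT1, FRO2, 4 bHLH genes and CYP82C4 as percent of the Col-0 mean RPKM (vertical axis) in each sqtl1 RNAi library (red) and Col-0 library (blue). RNAi replicate 3 (red triangles) was at 84.3% for IRT1, 132% for FRO2 and 137% to 458% for the bHLH genes, while it was at 32.3% for FIT.

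Markers of root epidermis and of root endodermis moved in both directions. The summed RPKM of 8 root epidermis and hair markers was 147.54, 148.53 and 75.05 in RNAi replicates 1 to 3, against 75.7, 88.09 and 76.53 in Col-0. Of these markers, 2 rose, 1 fell and 5 did not pass, where 25.2% of all genes tested rose and 27.5% fell. The sum of RNAi replicate 3 lay close to the Col-0 sums, and PRP3 alone gave 40.18 RPKM of it. Single markers in that library stood at 35.4% (GL2) to 145% (RSL4) of the Col-0 mean. For 8 root endodermis markers the sum was 190.46 to 195.8 RPKM in the RNAi line and 232.08 to 275.6 RPKM in Col-0. Of these 8, 2 were higher (25%) and 4 lower (50%). The part of these cell types in the change of FIT was not tested.

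The shoot ferric reductase genes FRO6 and FRO7 both fell, and the mitochondrial reductase gene FRO3 rose. FRO6 (AT5G49730, chromosome 5, 20201037 to 20204595, minus strand, 9 exons), which encodes a plasma membrane reductase of green tissue, had 1.01, 2.18 and 3.23 RPKM in RNAi replicates 1 to 3. Col-0 replicates 1 to 3 had 17.04, 14.35 and 14.37 RPKM. All RNAi libraries lay at 6.62% to 21.2% of the Col-0 mean, the lowest levels relative to Col-0 of the 10 genes. FRO6 fell to 2.14 ± 1.11 RPKM in the RNAi line, against 15.3 ± 1.55 RPKM in Col-0 (SD, n = 3 each), with a log2 fold change of -2.43 (SE 0.26, limma adjusted p = 0.000723).

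FRO7 (AT5G49740, chromosome 5, 20205302 to 20208777, minus strand, 9 exons), which encodes the reductase of the chloroplast envelope, had 1.13, 1.19 and 1.29 RPKM in the RNAi libraries, against 4.59, 3.7 and 4.03 RPKM in Col-0. The RNAi values lay close together and far below Col-0. FRO7 fell 3.41-fold (log2 fold change -1.21, SE 0.08, limma adjusted p = 0.000236). The within-library log2 ratio of FRO6 to FRO7 was -0.16, 0.87 and 1.32 in RNAi replicates 1 to 3, against 1.89, 1.96 and 1.83 in Col-0. The ratio was thus lower by 1.22 log2 units in the RNAi line without overlap, at the smallest p that an exact permutation test of 3 against 3 libraries can give (two-sided p = 0.1, 0.15 adjusted over 3 pairs). The difference was -0.80 without RNAi replicate 1 and -1.54 without RNAi replicate 3.

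FRO6 and FRO7 are tandem neighbours on the same strand, 706 bases apart with no gene between them. Their coding sequences, of 2217 and 2244 bases, were 93.9% identical over aligned bases and shared a run of 375 bases at the 3′ end, longer than a 150-base read. The deposited share of reads that map to several places was 0.0748 for FRO6 and 0.0744 for FRO7, so part of the reads could not be assigned to one copy and the split between the 2 genes is uncertain. Taken as 1 locus over the summed length, the pair had 1.67 ± 0.599 RPKM in the RNAi line and 9.72 ± 0.99 RPKM in Col-0 (SD, n = 3 each). That is 5.8-fold lower in the RNAi line.

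The sequences before the annotated starts of these genes were compared because the pair fell together. They are the 250 bases upstream of FRO6 (chr5:20204596-20204845, minus strand), FRO7 (chr5:20208778-20209027, minus strand) and OPT3 (chr4:9250344-9250593, minus strand), read from RefSeq's TAIR10.1 genome, 5′ to 3′. Capitals mark the G-box CACGTG, a site bound by bHLH and bZIP factors, and the I-box GATAAG, an element common in light-regulated promoters, on either strand.
FRO6: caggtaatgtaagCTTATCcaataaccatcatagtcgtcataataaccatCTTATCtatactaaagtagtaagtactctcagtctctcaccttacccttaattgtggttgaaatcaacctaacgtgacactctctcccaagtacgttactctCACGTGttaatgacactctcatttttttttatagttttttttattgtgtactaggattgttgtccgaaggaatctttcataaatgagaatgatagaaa
FRO7: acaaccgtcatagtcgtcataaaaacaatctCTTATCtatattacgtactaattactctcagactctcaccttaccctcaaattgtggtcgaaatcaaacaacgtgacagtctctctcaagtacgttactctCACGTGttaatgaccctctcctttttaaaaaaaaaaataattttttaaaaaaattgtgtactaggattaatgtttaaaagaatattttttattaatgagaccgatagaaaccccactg
OPT3: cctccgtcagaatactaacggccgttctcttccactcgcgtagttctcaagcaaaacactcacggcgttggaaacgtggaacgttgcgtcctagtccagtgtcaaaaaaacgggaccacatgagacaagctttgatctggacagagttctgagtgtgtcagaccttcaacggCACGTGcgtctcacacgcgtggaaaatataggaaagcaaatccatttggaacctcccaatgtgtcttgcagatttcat
FRO6 and FRO7 held an identical stretch of 29 bases around the G-box, caagtacgttactctCACGTGttaatgac. Its G-box began 98 bases before the start of FRO6 and 118 bases before that of FRO7. FRO6 also held 2 I-boxes and FRO7 held 1. Among the 10 genes, 3 held a G-box (FRO6, FRO7 and OPT3), against 6.49% of 27443 protein-coding genes over the same length. An I-box was held by 3 (FRO6, FRO7 and NAS4), against 12.3%. FRO6 and FRO7 are neighbours with similar sequences and share the stretch that holds the G-box, so their matches are not independent. The evening element AAAATATCT was found in none of the 10 and in 2.36% of all. The wider E-box CANNTG, which includes the G-box, was found in 5 of 10 and in 55.3% of all. Of the genes with a G-box, FRO6 and FRO7 fell and OPT3 rose. A match is only a match of letters, and a link between motifs and fold changes was not tested.

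FRO3 (AT1G23020, chromosome 1, 8149868 to 8153796, minus strand, 9 exons), expressed in vascular tissue with a product that reduces iron at mitochondria, had 24.92, 28.15 and 31.26 RPKM in the RNAi libraries, against 21.89, 21.15 and 21.74 RPKM in Col-0. All RNAi libraries were above Col-0. FRO3 rose 1.3-fold (log2 fold change 0.36, SE 0.08, limma adjusted p = 0.011). Its last 24 bases overlap the opposite-strand gene AT1G23010, which was at 1.52 to 2.8 RPKM in all libraries.

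Leaf mesophyll markers fell along with FRO6 and FRO7. The summed RPKM of 7 mesophyll markers was 13110.88, 14489.92 and 21059.34 in RNAi replicates 1 to 3, against 35225.98, 32926.55 and 33241.96 in Col-0. All 7 fell, where 27.5% of all genes tested did. The sum stood at 38.8%, 42.9% and 62.3% of the Col-0 mean in RNAi replicates 1 to 3, where FRO6 stood at 6.62%, 14.3% and 21.2% and FRO7 at 27.5%, 29% and 31.4%. RNAi replicate 3 was the highest and replicate 1 the lowest of the RNAi libraries in all 3 measures. Single markers stood at 25.7% to 48.2% of the Col-0 mean in RNAi replicate 1, 30.2% to 52.5% in replicate 2 and 49.9% to 71.2% in replicate 3. RBCS1A, the most abundant marker, was at the upper end each time, and LHCA4, at 25.7% in RNAi replicate 1, lay below FRO7. FRO6 lay below every marker in each RNAi library. The part of mesophyll content in the fall of FRO6 and FRO7 was not tested.

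**Figure D4:**
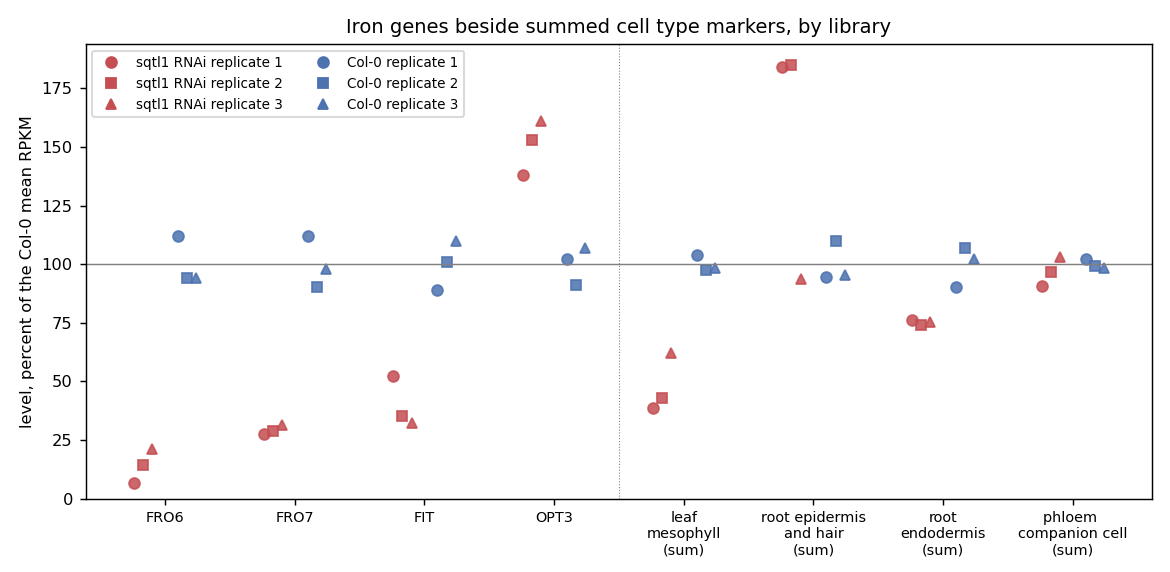
Levels of FRO6, FRO7, FIT and OPT3 and summed levels of cell type markers, as percent of the Col-0 mean RPKM (vertical axis), in each sqtl1 RNAi library (red) and Col-0 library (blue). FRO6 and FRO7 lay below the mesophyll sum in every RNAi library, although 1 single marker lay below FRO7 in RNAi replicate 1, and OPT3 lay above the phloem sum, which was at 90.9% to 103%.

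Of the nicotianamine synthase genes described, NAS4 rose and NAS1 was not called. Nicotianamine chelates iron, copper and zinc and is made from S-adenosylmethionine by this small family. NAS4 (AT1G56430, chromosome 1, 21136835 to 21138277, plus strand, 1 exon) had 17.43, 12.89 and 7.88 RPKM in RNAi replicates 1 to 3, against 3.19, 3.2 and 3.55 RPKM in Col-0. All RNAi libraries were above Col-0, replicate 1 by the most. NAS4 rose 3.84-fold (log2 fold change 1.61, SE 0.25, limma adjusted p = 0.00241).

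NAS1 (AT5G04950, chromosome 5, 1457641 to 1459039, minus strand, 1 exon) had 43.08, 22.3 and 16.33 RPKM in RNAi replicates 1 to 3, against 31.1, 30.34 and 34.11 RPKM in Col-0. RNAi replicate 1 lay above and replicates 2 and 3 below all Col-0 libraries. Its log2 fold change of -0.33 (95% interval -1.09 to 0.43, limma adjusted p = 0.411) became -0.71 without RNAi replicate 1, where it passed (limma adjusted p = 0.00432), and -0.03 without RNAi replicate 3 (limma adjusted p = 0.914). In both NAS1 and NAS4, RNAi replicate 1 was the highest and replicate 3 the lowest of the RNAi libraries. The within-library log2 ratio of NAS1 to NAS4 was 1.31, 0.79 and 1.05 in the RNAi libraries, against 3.29, 3.25 and 3.26 in Col-0. The ratio was lower by 2.22 log2 units in the RNAi line (exact permutation test, two-sided p = 0.1, the smallest possible, 0.15 adjusted over 3 pairs). The coding sequences of NAS1 and NAS4 were 69.3% identical over aligned bases, with a longest shared run of 15 bases, and no read of either was listed as mapping to several places.

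The paralog NAS3 had 0.45, 0.66 and 0.32 RPKM in the RNAi libraries, against 2.97, 2.54 and 1.59 RPKM in Col-0. It fell 4.96-fold (log2 fold change -1.17, limma adjusted p = 0.00223). NAS2 had a log2 fold change of -0.35 and did not pass. The family thus held 1 gene that rose, 1 that fell and 2 that did not pass, where 52.6% of all genes tested passed.

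OPT3, the phloem iron loader, rose and FER1, the main plastid ferritin gene by level, was not called. OPT3 (AT4G16370, chromosome 4, 9247302 to 9250343, minus strand, 5 exons) had 21.37, 23.77 and 24.92 RPKM in the RNAi libraries, against 15.79, 14.16 and 16.58 RPKM in Col-0. The groups did not overlap. OPT3 rose 1.51-fold (log2 fold change 0.56, SE 0.08, limma adjusted p = 0.00194). The summed RPKM of 5 phloem companion cell markers was 24.13 to 27.47 in the RNAi line and 26.13 to 27.13 in Col-0. Of the 5, 1 fell and 4 did not pass, where 52.6% of all genes tested passed.

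FER1 (AT5G01600, chromosome 5, 227953 to 230051, minus strand, 8 exons) had 111.8, 96.09 and 85.27 RPKM in RNAi replicates 1 to 3, against 116.13, 105.52 and 102.85 RPKM in Col-0. RNAi replicate 1 lay among the Col-0 libraries and replicates 2 and 3 below them. The log2 fold change was -0.15 with a 95% interval from -0.41 to 0.1 (limma adjusted p = 0.27), and without RNAi replicate 1 it was -0.25 and passed (limma adjusted p = 0.0329), while without RNAi replicate 3 it was -0.06 (limma adjusted p = 0.582). Scaling libraries to equal sums put it at 0.01. FER1 shares 1334 bases with the opposite-strand gene AT5G01595, which was at 3.25 to 4.92 RPKM in the RNAi line and 4.02 to 4.54 RPKM in Col-0, and reads of the pair cannot be told apart unless counting used strand. Among the other ferritins, FER3 had 60.47, 50.51 and 48.33 RPKM in the RNAi line, against 57.17, 56.03 and 54.85 RPKM in Col-0, and passed only without RNAi replicate 1 (limma adjusted p = 0.018). FER4 fell 1.2-fold (limma adjusted p = 0.0331), a call lost under scaling to equal sums, under quantile normalization and without Col-0 replicate 1, Col-0 replicate 2, RNAi replicate 2 or RNAi replicate 3 (limma adjusted p up to 0.111). FER2, known as the ferritin of seeds, rose 3.85-fold, with 10.29, 7.31 and 4.1 RPKM in RNAi replicates 1 to 3, against 1.79, 2.01 and 1.83 RPKM in Col-0 (limma adjusted p = 0.0049).

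A wider list of iron homeostasis genes was read for context. Of 69 genes listed besides the 10, 59 had a name in the annotation and 54 passed the filter on low values. BTSL1, BTSL2, IMA1, IMA2, IMA3, S8H, COSY, MIT1, MIT2 and SUFD were left out for want of that name. The counts of their roles do not cover them. Of these 54, 9 rose and 20 fell, that is 16.7% and 37%, against 25.2% and 27.5% of all genes tested. Scaling libraries to equal sums gave 12 higher and 12 lower of the 54, where it gave 7738 higher and 3503 lower of all genes. Leaving out RNAi replicate 2 gave 13 lower, leaving out Col-0 replicate 1 also gave 13, and leaving out Col-0 replicate 3 gave 12. Over all genes these fits gave 4157, 4073 and 3975 lower, in place of 5346. The median log2 fold change of the 54 was -0.23, against -0.01 for all genes tested. Of the 12 regulators tested, 3 rose and 2 fell. The bHLH repressor genes BHLH11 and PYE rose 1.94-fold and 1.43-fold (limma adjusted p = 0.000757 and 0.00509). PYE is known in Arabidopsis to bind the promoters of NAS4, FRO3 and ZIF1. BHLH34 rose 1.39-fold and MYB10 fell 1.57-fold, at limma adjusted p = 0.0365 and 0.0434. Both calls were lost when any 1 of 5 libraries was left out, that is Col-0 replicate 1, 2 or 3 or RNAi replicate 1 or 2 (limma adjusted p up to 0.117 and 0.13). That of MYB10 was also lost under scaling to equal sums (limma adjusted p = 0.0845).

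Of 7 genes of uptake and coumarin synthesis tested, 1 rose (14.3%) and 3 fell (42.9%), against 25.2% and 27.5% of all genes tested. The transporter gene IRT3 rose 1.45-fold, the manganese and iron transporter gene NRAMP1 fell 1.36-fold, and the coumarin genes BGLU42 and PDR9, a glucosidase and an exporter, fell by 0.29 and 0.38 on the log2 scale (limma adjusted p = 0.0032, 0.00859, 0.0106 and 0.0185). Scaling libraries to equal sums ended the calls of BGLU42 and PDR9. The call of PDR9 was lost without Col-0 replicate 2, Col-0 replicate 3 or RNAi replicate 2 (limma adjusted p up to 0.0705). IRT2, the tandem neighbour of IRT1, had 5.29, 5.91 and 3.33 RPKM in RNAi replicates 1 to 3, against 2.9, 3.5 and 3.12 RPKM in Col-0. Its log2 fold change of 0.46 did not pass (limma adjusted p = 0.0639) but did without RNAi replicate 3 (limma adjusted p = 0.00107) and under scaling to equal sums. The within-library log2 ratio of IRT1 to IRT2 was -1.23, -1.36 and 0.98 in the RNAi line and 1.26, 0.73 and 1.76 in Col-0 (exact permutation test, two-sided p = 0.2, 0.2 adjusted over 3 pairs).

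Of the 3 other ferric reductase genes tested, FRO8, a mitochondrial reductase gene, fell 1.52-fold (limma adjusted p = 0.0175), a call lost without Col-0 replicate 1 or Col-0 replicate 3 (limma adjusted p up to 0.0664). FRO4 and FRO5, known for copper reduction at the root surface, did not pass (limma adjusted p = 0.234 and 0.603). FRO5 had 2.53, 1.84 and 2.34 RPKM in the RNAi libraries, against 5.74, 0.71 and 4.76 RPKM in Col-0, where replicate 2 was the lowest of all libraries. Without Col-0 replicate 2, both genes were lower in the RNAi line, FRO4 with a log2 fold change of -0.96 and FRO5 with -0.95 (limma adjusted p = 0.00729 and 0.0062). These p-values are no test of a difference, as that library was picked after its values were seen. FRO1, the neighbour of FRO2, was at 0.04 to 0.07 RPKM in the RNAi line and 0.01 to 0.06 RPKM in Col-0 and was not tested.

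Of 8 genes of chelation and long-distance transport, 2 rose (25%) and 3 fell (37.5%), against 25.2% and 27.5% of all genes tested. The iron-nicotianamine transporter gene YSL1 rose 2.23-fold and the citrate exporter gene FRD3 rose 1.7-fold (limma adjusted p = 0.00337 and 0.00171). The ferroportin gene FPN1 fell 2.21-fold and the vacuolar nicotianamine transporter gene ZIF1 fell 1.76-fold (limma adjusted p = 0.00123 and 0.0204). The call of ZIF1 was lost without Col-0 replicate 1, Col-0 replicate 3 or RNAi replicate 2 (limma adjusted p up to 0.0698). Of 10 genes of storage and organelle transport, 3 rose (30%) and 3 fell (30%). NRAMP3, which exports vacuolar iron, rose 1.78-fold (limma adjusted p = 0.00837), and PIC1, a permease gene of the chloroplast envelope, fell 1.33-fold (limma adjusted p = 0.00474). FPN2, a vacuolar ferroportin gene, fell 1.81-fold (limma adjusted p = 0.0393), a call lost under scaling to equal sums and without any 1 Col-0 library or RNAi replicate 2 (limma adjusted p up to 0.11).

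**Figure D5:**
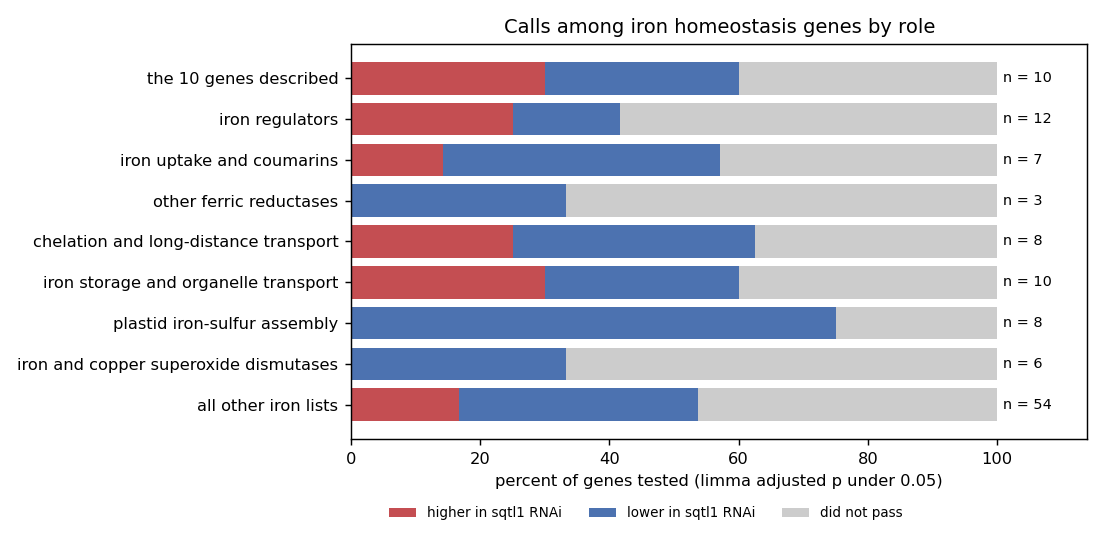
Share of genes tested (horizontal axis, percent) that were higher (red), lower (blue) or did not pass (grey) in sqtl1 RNAi over Col-0 at a limma adjusted p under 0.05, for the 10 genes and for each role among the other iron genes, with the number tested. The 10 genes split into 30% higher and 30% lower, where 25.2% and 27.5% of all genes tested were. In plastid iron-sulfur assembly, 6 of 8 genes were lower. Under scaling to equal sums, NFS2 and NFU2 of these lost their calls and SUFB was called higher.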

How the data were processed

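RNA of 3 sqtl1 RNAi and 3 Col-0 whole-seedling samples was sequenced from stranded poly(A) libraries, per the labels' protocols. The submitters' processing notes name Trimmomatic 0.39, Bowtie2 2.2.6 and TAIR10, while the sources used here do not name the counting step or its use of strand. The deposited values are RPKM per gene, computed by the authors. The authors' table also holds gene length in kilobases and a fraction, taken as the part of a gene's reads with several mapping places. Of 38199 lines, 5 named no gene and were left out. Every value column matched 1 sample.

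The test was limma 3.58.1 (R 4.3.3) with a mean-dependent variance prior, applied to log2(RPKM + 1). It covered the 19458 genes whose mean over all libraries reached 1 RPKM, with Benjamini-Hochberg adjustment over all of them. The fit was tested on simulated data with the same spread in both groups and few changed genes. That simulation does not cover the unequal spread and the many calls of these data. Read depth was estimated from the steps of low values in genes under 0.4 kb, of which 89.1% to 91% lay on a step within 0.0055 RPKM, so read numbers are estimates. Pairs of libraries within a group differed by 3.59 to 96.8 times the sampling variance of reads, so none was a duplicate. Sequences and coordinates come from RefSeq's TAIR10.1 and Biopython 1.88. The genes and lists were chosen with earlier results of these data known. Genes named with values are the 10, their paralogs and up to 4 called genes per list, by largest change. Genes outside this rule are said to be singled out after their values were seen, except FRO4, FRO5, NAS2, SUFB, NFS2, NFU2 and ILR3, which complete a family or list. Alternatives covered pseudocount, filter, scaling, weights, replicate block and leaving out each library.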

Additional observations from a re-analysis of the deposited data

How the results depend on the processing

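Of the 10 genes, FIT, FRO3, FRO6, FRO7, OPT3 and NAS4 kept direction and call under every alternative run, with log2 fold changes from -2.99 to -1.51 for FRO6 and from 1.06 to 1.89 for NAS4. FRO2 and FRO7 could not be fitted under a filter at 5 RPKM. FRO2 passed under none, and IRT1 also passed with voom weights (limma adjusted p = 0.0391). The log2 fold change of FER1 ranged from -0.25 to 0.01. The number of the 10 genes called lower ranged from 3 to 5 when 1 library was left out. Of the other iron genes, 12 to 25 were lower and 8 to 11 higher when 1 library was left out. Over all genes, the same fits gave 3975 to 6061 lower and 3515 to 5515 higher. Scaling libraries to equal sums gave 12 lower in the list of other iron genes, and 7738 higher and 3503 lower among all genes. That scaling multiplies all values of a library by the same factor, and on the log2(RPKM + 1) scale it shifts low genes less. A filter at 5 RPKM gave 5 higher in that list, with fewer genes tested. With a pseudocount of 1 in the ratio, the NAS1 to NAS4 difference was -1.94 log2 units, and when 1 library was left out it ranged from -2.34 to -2.09. Over single genes and alternatives, 789 values stayed on their side of the threshold, 60 lost and 28 gained a call. Of the 789, 19 values turned sign, all of genes without a call, FER1 among them. With no filter on low values, BHLH34, MYB10, PDR9, FRO8, ZIF1, FER4, FPN2 and NFU2 lost their calls, and under quantile normalization FER4, NFU2 and ILR3 did (limma adjusted p = 0.0699, 0.265 and 0.169).

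Same-numbered libraries of the 2 groups did not deviate together (correlations of deviations of -0.06, 0.09 and 0.02 for replicates 1 to 3), so the numbers were not taken to pair samples. With a replicate block, 4272 genes were higher and 4762 lower, and among the 10 genes 3 were higher and 4 lower, IRT1 being added (limma adjusted p = 0.00784). Under the block BHLH34, MYB10, ILR3, PDR9 and NFU2 lost their calls (limma adjusted p = 0.0558, 0.0555, 0.0783, 0.0513 and 0.12). Not every library correlated best with its own number. Low read numbers limit the values of FRO2, with as few as 56 estimated reads in a library. The replicates are called biological with no further detail, so p-values weigh the group difference against the spread between these samples. Over genes, the median SD was 0.111 log2 units within RNAi libraries and 0.0566 within Col-0 libraries. The fit used a common variance for both groups.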

Other observations

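Genes of iron-sulfur cluster assembly in plastids were lower or not called. Of 8 tested, 6 fell and none rose, where 27.5% of all genes fell. HCF101, which supplies clusters to photosystem I, had 26.99, 26.11 and 32.3 RPKM in RNAi replicates 1 to 3, against 54.42, 52.89 and 50.68 RPKM in Col-0, and fell 1.85-fold (limma adjusted p = 0.000596). NFU3 fell 1.71-fold, SUFC 1.57-fold and NFU1 1.46-fold (limma adjusted p = 0.00351, 0.00038 and 0.000852). NFS2 and NFU2 fell by 0.23 and 0.17 on the log2 scale (limma adjusted p = 0.0116 and 0.0471). Both calls were lost under scaling to equal sums, NFS2 also without Col-0 replicate 3 (limma adjusted p = 0.0548) and NFU2 without any 1 Col-0 library or RNAi replicate 1 or 2 (limma adjusted p up to 0.154). SUFB had a log2 fold change of 0.16 and did not pass, but was higher without RNAi replicate 3 (limma adjusted p = 0.0293) and under scaling to equal sums. The mesophyll markers fell beside them, to between 38.8% and 62.3% of the Col-0 mean, and their part was not tested.

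Among superoxide dismutases, which remove superoxide with iron or with copper and zinc as cofactors, the plastid iron enzymes FSD3 and FSD2 fell 1.74-fold and 1.42-fold (limma adjusted p = 0.00253 and 0.00296). Col-0 replicate 2 stood apart for genes of copper use, which were singled out after their values were seen. CSD2, the copper/zinc enzyme of the plastid, had 74.6, 85.95 and 58.21 RPKM in the RNAi libraries, against 30.11, 158.79 and 34.08 RPKM in Col-0 replicates 1 to 3. CSD1 had 161.1, 163.77 and 116.25 RPKM in the RNAi libraries, against 56.06, 201.29 and 74.68 RPKM in Col-0. FSD1, the abundant iron enzyme, had 741.6, 668.6 and 784.49 RPKM in the RNAi libraries, against 1111.77, 674.34 and 1040.58 RPKM in Col-0. None of the 3 passed with all libraries (limma adjusted p = 0.619, 0.291 and 0.199). Without Col-0 replicate 2, CSD1 and CSD2 were higher, with log2 fold changes of 1.15 and 1.14, and FSD1 was lower, at -0.56 (limma adjusted p = 0.0108, 0.00779 and 0.0209). That library was picked after its values were seen, so these p-values are no test of a difference. Col-0 replicate 2 was also the lowest Col-0 library for FRO4 and FRO5.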
